A study of Homo sapiens with 8 samples.

Results

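The protein-coding genes of chromosome 19 whose symbols begin with ZNF and a digit encode zinc finger proteins, most of them sequence-specific DNA-binding repressors. They were chosen by annotation (GENCODE release 44, protein coding, chromosome 19) and by a measured value, a mean raw read count of at least 20 over the 4 libraries. The count table listed 58302 genes, of which 249 were chromosome 19 ZNF genes, and 86 of these 249 reached the mean count and are called the members here. All 86 had enough reads to be tested. The mean was taken over both groups together, so it did not use the difference between them. ZNF383 and ZNF260 lay just inside the limit, with means of 20.5 and 20.75 counts, and ZNF430 and ZNF497 just outside it, with 19.5 counts each. Of the 163 genes below the limit, 61 were listed at 0 in all 4 libraries, 102 had some reads, 32 were tested and 0 passed an adjusted p of 0.05.

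The cells were DLD1, an established human colorectal cancer line. In the OE-WT group they stably overexpressed wild-type TRMT6 and TRMT61A, the subunits of the enzyme that places N1-methyladenosine on tRNA, and in the CTRL group they carried the vector. The labels give 2 libraries per group, each run in 2 lanes, and the genotype and treatment of the groups as TRMT6/TRMT61A overexpression and as WT, Control. Neither group carries another allele or agent by the labels, except that all cells were washed with cycloheximide at lysis, and the RNA came from the cleared lysate. Nothing in the labels says that the 2 libraries of a group came from separate cultures, so the p-values measure only the spread between these libraries, which may be technical.

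A C2H2 zinc finger is a short loop in which 2 cysteines and 2 histidines hold a zinc ion, and a protein of this family carries many such fingers in tandem, each reading a few bases of DNA. Many of them also carry a KRAB box, which recruits TRIM28 (KAP1). TRIM28 in turn brings the histone methyltransferase SETDB1 and HP1 proteins (CBX1, CBX3, CBX5), and the complex is best known for silencing transposable elements. In the human genome these genes lie in clusters that grew by tandem duplication, and chromosome 19 holds the greatest concentration of them.

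The sequences that follow show the finger that defines the family, for the 8 members that differed between the groups. Each line gives the DNA of 1 finger, 63 bases, 5′ to 3′ on the coding strand, from GENCODE 44 on hg38, with the codons of the 2 cysteines and 2 histidines in capitals.
ZNF575, chr19:43535142-43535204, plus strand: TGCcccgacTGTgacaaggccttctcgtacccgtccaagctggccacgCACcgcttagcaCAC
ZNF226, chr19:44176271-44176333, plus strand: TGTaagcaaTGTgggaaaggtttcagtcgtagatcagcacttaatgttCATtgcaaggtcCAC
ZNF628, chr19:55481305-55481367, plus strand: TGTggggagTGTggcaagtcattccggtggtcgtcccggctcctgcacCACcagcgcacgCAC
ZNF579, chr19:55579442-55579504, minus strand: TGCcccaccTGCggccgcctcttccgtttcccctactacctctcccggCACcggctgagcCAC
ZNF562, chr19:9653300-9653362, minus strand: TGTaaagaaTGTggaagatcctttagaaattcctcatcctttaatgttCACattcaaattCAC
ZNF121, chr19:9566615-9566677, minus strand: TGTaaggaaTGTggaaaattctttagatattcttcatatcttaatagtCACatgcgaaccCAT
ZNF714, chr19:21117271-21117333, plus strand: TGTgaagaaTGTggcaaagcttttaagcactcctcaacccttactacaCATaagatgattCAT
ZNF175, chr19:51587340-51587402, plus strand: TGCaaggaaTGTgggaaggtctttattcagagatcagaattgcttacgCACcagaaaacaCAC
Each of these 8 fingers lay within the coding part of the last exon of its transcript, and each matched the genome base for base. A length of 63 bases is the shortest that the search pattern given below allows, so the spacing of the capitals is the same in all 8. The bases between them differed.

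The 8 members had very different complements of fingers. ZNF226 had 17 and ZNF628 had 16 by the pattern Cys, 2 to 4 residues, Cys, 12 residues, His, 3 to 5 residues, His, counted in the translated coding sequence. ZNF175 had 13, ZNF714 12, ZNF121 9, ZNF579 8, and ZNF575 and ZNF562 6 each. Over all 86 members the median was 11 fingers, from 1 in ZNF428 to 31 in ZNF91, and 52 members had 10 or more. A KRAB pattern was found in 59 members and in 211 of the 249 genes of the family on the chromosome. The search was by letters in the first 300 residues of 1 transcript per gene and misses partial boxes. SCAN, a dimerization domain, was found by its pattern in 3 members, ZNF444, ZNF274 and ZNF446.

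The overexpressed genes were checked before the members were compared. TRMT6 had 2092 and 1841 counts in OE-WT against 677 and 683 in CTRL, a log2 fold change of 1.86, and TRMT61A had 1365 and 1327 against 758 and 700, a log2 fold change of 1.21. Both genes were higher in the group labelled as overexpressing them. Total counts were 10327498 to 10460284 in OE-WT and 12063433 to 12379671 in CTRL. Pearson's r of log2 CPM across genes, which are not independent replicates, was 0.990 and 0.992 within the groups and 0.977 to 0.983 between them. The summed level of 10 epithelial markers was 12100 and 12440 CPM in OE-WT and 11050 and 10850 in CTRL, with CDX1 at 0 or 1 count. Of the 9 epithelial markers tested, 2 were higher in OE-WT (KRT8 and KRT18, log2 fold changes 0.25 and 0.30) and 3 lower (CDH1 −0.29, KRT19 −0.19 and CEACAM5 −1.34), and their part in the members' values was not tested. The summed levels of the fibroblast, leukocyte and endothelial markers lay between 0.590 and 3.22 CPM in every library. In bulk RNA, fewer cells expressing a gene and less RNA of that gene per cell cannot be told apart.

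The members were expressed at low levels. Their median mean count was 57.4, against 144 for all 14133 genes tested, and 38 of the 86 had a mean below 50. Summed over all members, the reads came to 651 and 633 CPM (reads of a gene relative to the TMM-adjusted library total) in OE-WT and 662 and 670 CPM in CTRL. The OE-WT mean of 642.0 ± 13 and the CTRL mean of 665.8 ± 5.8 (SD, n = 2) gave a ratio of 0.964, a log2 ratio of −0.05. The OE-WT libraries both lay below the CTRL libraries in this sum, but 2 against 2 libraries allow no exact two-sided permutation p below 0.333. Scaled by total counts alone the log2 ratio was −0.14. The sum includes ZNF575, with means of 26.69 CPM in OE-WT and 42.84 in CTRL, while 36 of the 86 members had positive log2 fold changes.

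ZNF317 had the highest mean count, 502.0, with 46.8 and 42.2 CPM in OE-WT and 46.0 and 42.4 in CTRL. ZNF787 came next at 434.0 counts, with 37.4 and 39.3 CPM in OE-WT and 37.5 and 39.1 in CTRL. The groups overlapped in both genes, and the fitted log2 fold changes were 0.01 (SE 0.09) and 0.00 (SE 0.09). ZNF575 followed with 404.2 counts. ZNF574 had 330.2 counts, and its CPM of 27.9 and 27.1 in OE-WT lay below the 30.3 and 30.7 of CTRL, a log2 fold change of −0.15 (SE 0.10) that missed the threshold (edgeR adjusted p 0.291) and was 0.01 with the GC trend removed (a smooth trend of the counts with transcript GC content, taken out of each library). ZNF274, a KRAB and SCAN protein known to bind the 3′ ends of zinc finger genes themselves, had 219.8 counts. It stood at 18.4 and 20.6 CPM in OE-WT and 19.7 and 18.8 in CTRL, with a log2 fold change of 0.02 (SE 0.12). Per kilobase of transcript, the highest mean levels were those of ZNF575 (20.9 CPM per kb), ZNF787 (19.8), ZNF581 (12.2), ZNF317 (10.9) and ZNF428 (9.43), and the lowest was 0.198 CPM per kb, in ZNF431.

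**Figure D1:**
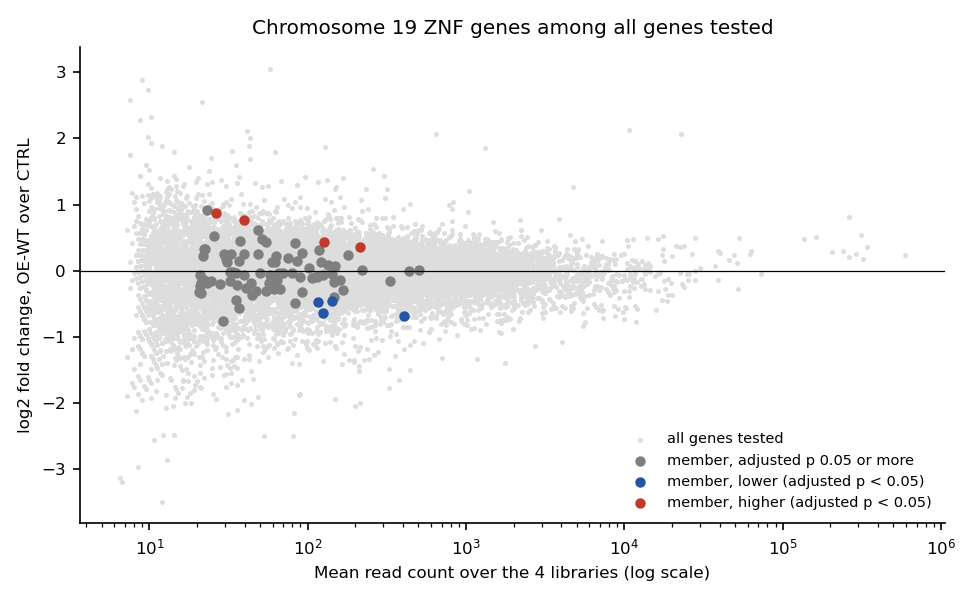
Log2 fold change of OE-WT over CTRL against the mean read count over the 4 libraries (log axis), with all 14133 genes tested in pale grey and the 86 members as large points. The members lie between −0.76 and 0.92, with 4 called lower in blue and 4 called higher in red.

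Few members differed between OE-WT and CTRL. In the quasi-likelihood test of edgeR, adjusted by Benjamini-Hochberg across every gene tested, 4 of the 86 members (4.65%) were higher and 4 (4.65%) lower in OE-WT at an adjusted p below 0.05. Among all genes tested 9.44% were higher and 11.6% lower. DESeq2 called 0 higher and 2 lower (ZNF575 and ZNF226), where 9.74% of all genes were called, both directions together. Scaling by total counts alone in edgeR gave 1 higher and 7 lower, where 22.5% of all genes were called. At p below 0.05 with an absolute log2 fold change above 1, 0 members passed, against 3.15% of all genes. The count of members at an unadjusted p below 0.05 was 15, of which 8 were higher and 7 lower, and DESeq2 gave 3. The members were 17.4% at that level and all genes 33.8%.

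The members' log2 fold changes had a median of −0.04, against 0.01 for all genes tested, and ran from −0.76 to 0.92. In 77 of the 86 they lay within 0.5 of 0. The groups did not overlap in CPM in 42 members (48.8%), 22 of them higher and 20 lower in OE-WT, against 60.2% of all genes. The median standard error of a member was 0.22, against 0.15 for all genes. The 95% confidence interval lay within a 2-fold change in either direction in 76 members and reached beyond it in 10, so at this depth a 2-fold change lay within the interval of these 10.

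ZNF575, a small protein with no KRAB pattern, had the lowest adjusted p among the members. Its counts were 243 and 294 in OE-WT against 576 and 504 in CTRL, or 24.5 and 28.9 CPM against 44.8 and 40.9 CPM. Both OE-WT libraries lay below both CTRL libraries, and the level was 0.623 times that of CTRL (log2 fold change −0.68, SE 0.10, edgeR adjusted p 4.01e-05). ZNF226, a KRAB protein, had 82 and 86 counts against 175 and 154, or 8.26 and 8.45 CPM against 13.6 and 12.5. Again the groups did not overlap, and the fold was 0.640 (log2 −0.64, SE 0.15, edgeR adjusted p 0.00464). These were the members called in all 11 alternative analyses, with adjusted p up to 0.000982 for ZNF575 and up to 0.0497 for ZNF226.

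The other 2 members called lower were GC-rich genes without a KRAB pattern that neighbour each other near the end of the long arm. ZNF628 had 74 and 96 counts in OE-WT against 154 and 141 in CTRL, or 7.46 and 9.44 CPM against 12.0 and 11.5. ZNF579 had 113 and 96 counts against 174 and 185, or 11.4 and 9.44 CPM against 13.53 and 15.02. The groups were apart in both, and the log2 fold changes were −0.47 (SE 0.16, edgeR adjusted p 0.0441) and −0.46 (SE 0.15, edgeR adjusted p 0.0352). The call of ZNF628 was lost without OE-WT replicate 1 (adjusted p 0.334), CTRL replicate 1 (0.161) or CTRL replicate 2 (0.0667). That of ZNF579 was lost without OE-WT replicate 2 (0.193) or CTRL replicate 2 (0.161). DESeq2 called neither (adjusted p 0.229 and 0.188).

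ZNF562 and ZNF121, which lie close together on the short arm with ZNF561 between them, were both higher in OE-WT. ZNF562, a KRAB protein, had 225 and 206 counts in OE-WT against 194 and 227 in CTRL, or 22.7 and 20.2 CPM against 15.1 and 18.4. ZNF121 had 132 and 133 counts against 123 and 122, or 13.3 and 13.1 CPM against 9.56 and 9.90. The counts themselves were nearly level between the groups, and the CTRL libraries were the larger. The log2 fold changes were 0.36 (SE 0.13, edgeR adjusted p 0.0493) for ZNF562 and 0.44 (SE 0.15, edgeR adjusted p 0.0384) for ZNF121. The annotation places genes of the other strand over 52.0% of the exon bases of ZNF562, and the strand setting of the counting is not given in the sources used here, so its level is uncertain. Scaled by total counts alone, neither was called (log2 fold change 0.27, adjusted p 0.128 for ZNF562 and 0.35, adjusted p 0.0996 for ZNF121), nor were they with DESeq2 (adjusted p 0.233 and 0.219). ZNF562 lost its call without OE-WT replicate 1 (adjusted p 0.238) or CTRL replicate 1 (0.384), and ZNF121 lost its call whichever of the 4 libraries was left out (0.0761 to 0.167).

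The remaining members called higher had few reads. ZNF714 had 40 and 51 counts in OE-WT against 30 and 37 in CTRL, or 4.03 and 5.01 CPM against 2.332 and 3.003. ZNF175, a KRAB protein, had 32 and 31 counts against 21 and 22, or 3.22 and 3.05 CPM against 1.63 and 1.79. The groups did not overlap in either gene, with log2 fold changes of 0.76 (SE 0.25, edgeR adjusted p 0.0353) and 0.87 (SE 0.29, edgeR adjusted p 0.0356). Their 95% intervals, 0.24 to 1.29 and 0.27 to 1.47, ran from a small change to beyond 2-fold. Without OE-WT replicate 2 or CTRL replicate 1 the adjusted p of ZNF714 was 0.224 or 0.242, and that of ZNF175 was 0.0861 to 0.180 whichever of the 4 libraries was left out. DESeq2 gave ZNF714 an adjusted p of 0.229 and ZNF175 none.

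**Figure D2:**
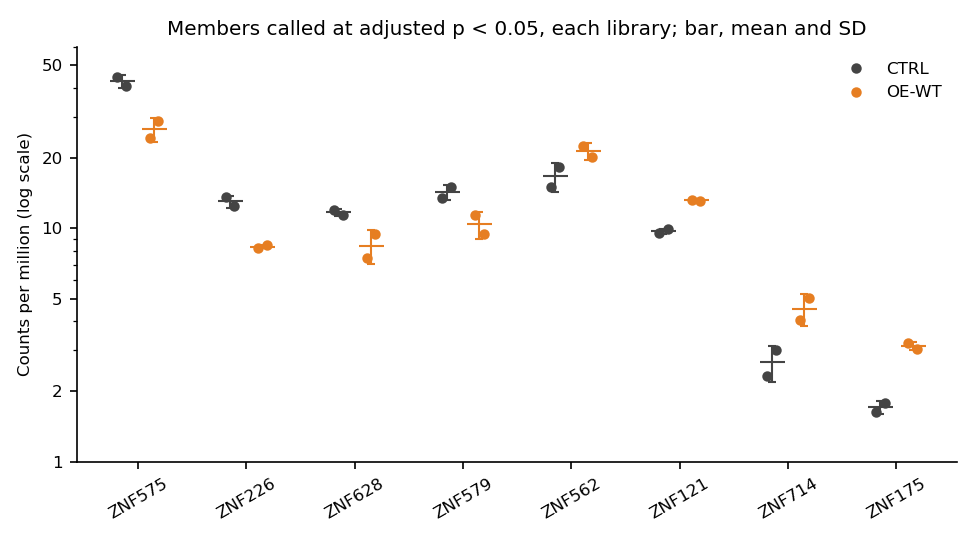
Level of each of the 8 called members in every library, in CPM on a log axis, with CTRL in dark grey and OE-WT in orange, points for libraries and bars for the mean and SD. In every gene both OE-WT libraries lie on the same side of both CTRL libraries.

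Members with larger fitted changes than some of these were not called. ZNF585B and ZNF83, named after their values were seen, had the highest and the lowest log2 fold change of all members. ZNF585B had 36 and 20 counts in OE-WT against 13 and 24, a log2 fold change of 0.92 (SE 0.36, edgeR adjusted p 0.0779), and 17.1% of its 100-base windows also occur in another gene, mainly its neighbour ZNF585A. ZNF83 had 22 and 15 counts against 47 and 32, a log2 fold change of −0.76 (SE 0.31, edgeR adjusted p 0.0855). In ZNF585B the lower OE-WT library, at 1.97 CPM, was barely above the higher CTRL library, at 1.95 CPM. Of the 86 members, 50 had no 100-base window in common with another gene, and in these 50 the median log2 fold change was −0.12, with 2 higher and 4 lower. More than 10% of the windows were shared in 12 members, up to 33.0% in ZNF324, whose exons overlap ZNF446.

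Members with and without the KRAB pattern both held genes called in each direction. Of the 59 members with the KRAB pattern, 2 were higher (ZNF562 and ZNF175) and 1 lower (ZNF226), and the median log2 fold change was −0.03. Of the 27 without it, 2 were higher and 3 lower, with a median of −0.09. With the GC trend removed these medians were −0.08 with the pattern and 0.05 without it, so their order turned. Fold changes reached from −0.64 to 0.92 with the pattern and from −0.76 to 0.76 without it. The members without the pattern were richer in GC, with a median of 62.6% against 43.3%, and had a higher median mean count, 102 against 47.0. Members with 10 or more fingers had 2 higher, 2 lower and a median of −0.03, and those with fewer fingers 2, 2 and −0.06 (−0.04 and 0.01 with the GC trend removed). The 3 SCAN members lay between −0.10 and 0.08, and none was called.

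Along the chromosome the members fell into 14 stretches, taken as runs of members less than 1 Mb apart. The stretch that ends the long arm (chr19:55476617-58481230, hg38) held 32 members, of which 2 were lower and 0 higher, with a median log2 fold change of −0.07 and ZNF787 as its most abundant member. The 8 members at chr19:43525497-45076478 had the lowest median of any stretch with more than 1 member, −0.26, and 2 were lower, ZNF575 and ZNF226. There, 6 of the 8 log2 fold changes were below 0, as were 50 of all 86 members. The 10 members at chr19:7069703-9675100, with ZNF317 as the most abundant, had 2 higher, ZNF562 and ZNF121, and a median of 0.05. In this stretch the values still ran from −0.56 to 0.44. The 11 members at chr19:51571283-53461862 had 1 higher, ZNF175, and a median of 0.15. Their most abundant member, ZNF480, had 81 and 79 counts in OE-WT against 100 and 81 in CTRL (log2 fold change 0.15, SE 0.18). With the GC trend removed the medians of these stretches, in the order given, were −0.08, −0.21, 0.00 and 0.03.

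The 3 members at chr19:21082159-21388582 all had positive values, 0.14 to 0.76, with ZNF714 called higher. Their median was 0.22, and 0.11 with the GC trend removed, where ZNF431 stood at 0.02. The other 9 stretches held no called member. Their most abundant members were ZNF554 (log2 fold change −0.06), ZNF791 (−0.03), ZNF333 (−0.19), ZNF101 (0.13), ZNF91 (−0.15), ZNF507 (0.46), ZNF146 (0.62), ZNF574 (−0.15) and ZNF473 (−0.14). ZNF146, a protein made almost wholly of fingers, came nearest the threshold among them, with 53 and 54 counts in OE-WT against 40 and 47 in CTRL (SE 0.23, edgeR adjusted p 0.0541). ZNF91, known to silence SVA retroelements, had 28 and 26 counts against 45 and 30 (SE 0.28). The CPM of the groups overlapped in ZNF91 and were apart in ZNF146. Neighbours in a cluster share sequence and origin and are not independent of each other.

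**Figure D3:**
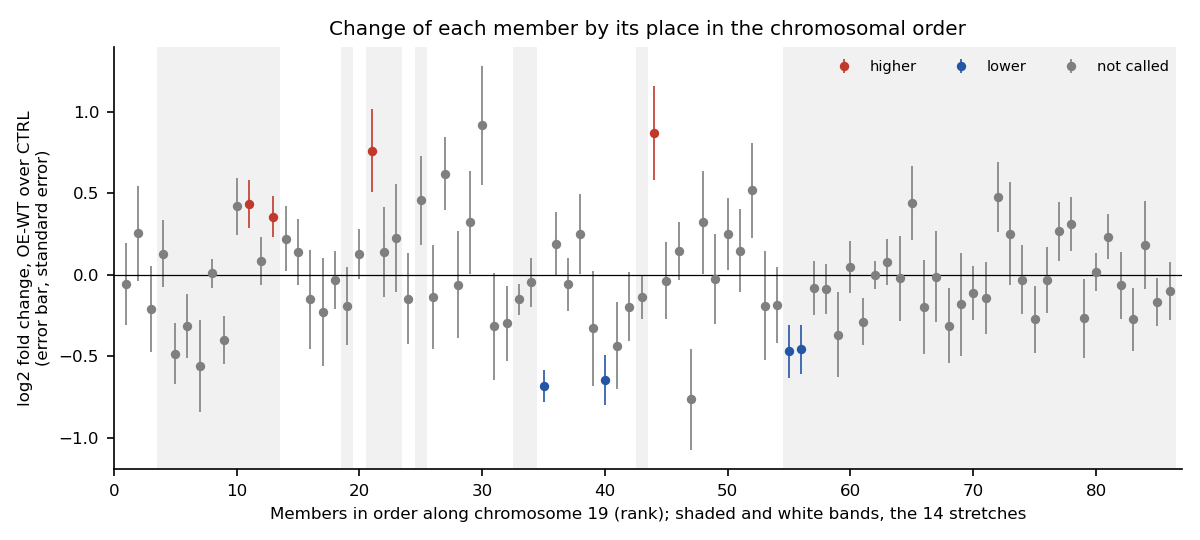
Log2 fold change of OE-WT over CTRL with its standard error for each of the 86 members, in rank order along chromosome 19, with shaded and white bands for the 14 stretches. Members called higher (red) lie in the stretches of ZNF562, ZNF714 and ZNF175, and those called lower (blue) in the stretch of ZNF575 and at the start of the last one.

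Other genes gave the measure for these values, all from the same fit and without a test between the sets. The 155 ZNF genes of other chromosomes with a mean of at least 20 counts had 7 higher (4.52%) and 6 lower (3.87%), and a median log2 fold change of −0.04. The 635 other coding genes of chromosome 19 had 45 higher (7.09%) and 151 lower (23.8%), with a median of −0.10, but their median GC content was 60.9% against 44.6% for the members. The 8999 other coding genes within the central 80% of the members' GC content, 39.1% to 65.7%, had 11.3% higher and 14.5% lower, a median of 0.00 and a median standard error of 0.11. These genes had more reads, with a median mean count of 255. In the 3125 genes that also lay within the members' central 80% of mean count, 22.8 to 154 counts, the standard error was 0.20, 5.79% were higher and 9.76% lower, and 28.0% had an unadjusted p below 0.05. That window was chosen after seeing the data.

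**Figure D4:**
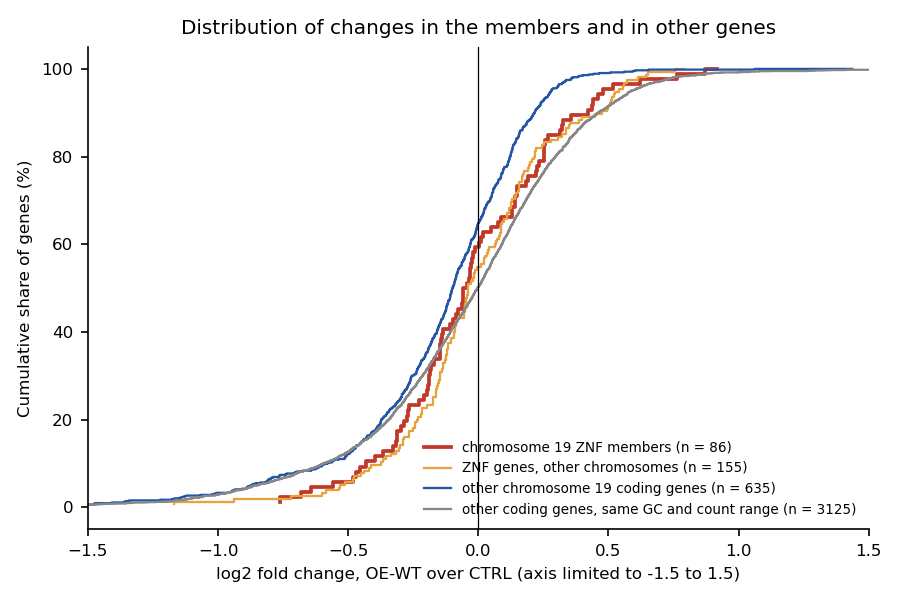
Cumulative share of genes (%) against the log2 fold change of OE-WT over CTRL, for the 86 members, 155 ZNF genes of other chromosomes, 635 other coding genes of chromosome 19 and 3125 other coding genes of like GC content and count. The member curve runs beside that of the other ZNF genes, and the other chromosome 19 genes lie to the left, with medians of −0.04, −0.04 and −0.10.

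Within the members, the direction of the difference went with the length of the 3′ UTR, the part of the transcript after the coding sequence. Its length was counted here from the last amino acid codon to the annotated transcript end, so it includes the stop codon. All 4 members called higher were in the longer 43 by 3′ UTR and all 4 called lower in the shorter 43, split at the median of 1742.5 bases. The lengths were 4046 to 11145 bases for ZNF175, ZNF121, ZNF714 and ZNF562, and 14 to 1180 bases for ZNF226, ZNF628, ZNF575 and ZNF579. Of the longer 43, 25 had positive log2 fold changes and the median was 0.13. Of the shorter 43, 11 were positive and the median was −0.15. Spearman's rho of log2 fold change and 3′ UTR length was 0.46 over the 86 members, and 0.36 to 0.48 with each library left out. With the 8 called members left out it was 0.34 over 78, and 0.09 with the GC trend removed. In the 50 members without shared sequence it was 0.41, and 0.15 with the trend removed, where the longer and the shorter members of these 50 both had a median of −0.13. These values are descriptions of a pattern noticed in the data, and genes that share libraries and clusters are not independent.

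GC content moved with the same pattern. Longer 3′ UTRs were poorer in GC over the transcript (rho −0.63 over the members), and the log2 fold change had a rho of −0.31 with GC content in the members and −0.35 over all 11663 coding genes tested. With the GC trend removed the rho with 3′ UTR length over all members was 0.24, and the medians were 0.04 for the longer and −0.15 for the shorter members. Among the 59 members under 50% GC the rho was 0.41 (0.39 with the trend removed), and among the 27 at or above it, 0.29 (0.03). Over all coding genes the rho with 3′ UTR length was 0.15. In the 155 ZNF genes of other chromosomes it was 0.10, and −0.07 with the trend removed. The part of GC content in the members' pattern was not tested.

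**Figure D5:**
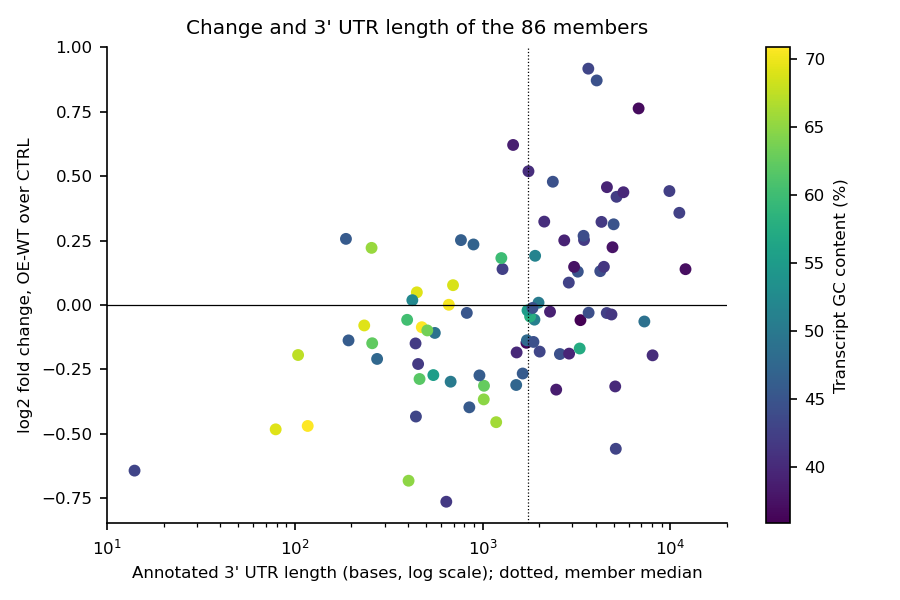
Log2 fold change of OE-WT over CTRL against annotated 3′ UTR length (bases, log axis) for the 86 members, coloured by transcript GC content (%), with the member median as a dotted line. Left of the line 11 of 43 points lie above 0 and right of it 25 of 43, and the GC-rich members lie mostly to the left.

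Members differ from other coding genes in several features that their choice did not use. The median transcript had 4 exons against 9 over all coding genes tested, a GC content of 44.6% against 49.0% and a 3′ UTR of 1742 bases against 1315. Removing the GC trend left ZNF575 (adjusted p 0.000982) and ZNF226 (0.00148) as calls and ended those of the other 6, with adjusted p from 0.0529 for ZNF175 to 0.369 for ZNF628. Of these 6, ZNF175 went from 0.87 to 0.79, ZNF714 from 0.76 to 0.65, ZNF121 from 0.44 to 0.32 and ZNF562 from 0.36 to 0.26. The log2 fold changes of ZNF628 and ZNF579 moved further, from −0.47 to −0.21 and from −0.46 to −0.25. In that fit ZNF266 (log2 fold change −0.46, edgeR adjusted p 0.0240) and ZNF787 (0.25, edgeR adjusted p 0.0377) were called in their place. The direction of the 8 original calls was the same in that fit.

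The promoter table, from RefSeq on GRCh38.p14, held 78 of the 86 members, as 300 bases around the annotated start. The median number of CpG was 22.5 in the members and 27 in the 9516 coding genes tested that had an entry. The ETS site CCGGAAG occurred in 43.6% of the member promoters against 19.9% of all, on either strand. CCAAT occurred in 52.6% against 36.7%, and the cyclic AMP response element TGACGTCA in 7.69% against 3.39%. ACTACAA, searched here under the name of a ZNF143 core, occurred in 11.5% against 3.97%. TATAAA occurred in 1.28% against 5.44%, and the GC box GGGCGG in 67.9% against 71.7%. The YY1 site AAGATGGC was found in 8.97% against 5.62%, and the NRF1 core GCGCATGC in 5.13% against 5.51%. No motif here contains another, and a match of letters is not a measured site.

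Shown here are the 250 bases before the start of ZNF562 and ZNF121, and of ZNF575 and ZNF226, the members called lower in all 11 alternatives. ZNF562 and ZNF121 were both higher, but ZNF561, which lies between them, was not called (log2 fold change 0.09, SE 0.15, edgeR adjusted p 0.727). The bases are written 5′ to 3′ on the strand of the gene, with matches to the 8 motifs on either strand in capitals. The motif counts above used 300 bases, including 50 after the start that are not shown. Over those 300 bases ZNF562 also held TGACGTCA and the YY1 site, and ZNF226 also held the YY1 site.
ZNF562, chr19:9675101-9675350, minus strand: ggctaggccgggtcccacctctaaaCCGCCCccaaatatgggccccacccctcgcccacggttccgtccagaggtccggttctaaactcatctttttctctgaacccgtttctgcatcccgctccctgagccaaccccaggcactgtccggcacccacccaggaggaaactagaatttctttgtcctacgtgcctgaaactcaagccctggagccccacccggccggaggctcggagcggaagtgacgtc
ZNF121, chr19:9584505-9584754, minus strand: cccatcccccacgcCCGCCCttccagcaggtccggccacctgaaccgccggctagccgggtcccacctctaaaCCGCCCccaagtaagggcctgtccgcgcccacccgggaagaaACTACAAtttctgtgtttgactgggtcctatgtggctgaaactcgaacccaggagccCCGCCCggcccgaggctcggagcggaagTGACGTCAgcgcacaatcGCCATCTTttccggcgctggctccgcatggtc
ZNF575, chr19:43532938-43533187, plus strand: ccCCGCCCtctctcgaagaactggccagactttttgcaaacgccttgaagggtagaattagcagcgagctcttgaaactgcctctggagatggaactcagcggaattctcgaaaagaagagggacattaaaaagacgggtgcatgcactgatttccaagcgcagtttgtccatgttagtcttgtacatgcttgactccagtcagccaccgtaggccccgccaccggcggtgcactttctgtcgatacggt
ZNF226, chr19:44164850-44165099, plus strand: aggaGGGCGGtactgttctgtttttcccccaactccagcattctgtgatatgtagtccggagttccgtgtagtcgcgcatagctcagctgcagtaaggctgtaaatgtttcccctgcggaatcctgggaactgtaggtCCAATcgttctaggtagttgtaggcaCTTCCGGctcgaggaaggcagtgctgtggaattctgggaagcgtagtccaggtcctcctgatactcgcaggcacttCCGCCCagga
ZNF562 and ZNF121 shared a run of 29 identical bases in this window, while the other pairs among the 8 called members shared runs of 7 to 10. ZNF575 starts within its GENCODE gene in the RefSeq table, several kilobases after the GENCODE start. ZNF226 carried a CCAAT box and an ETS site and ZNF575 neither, although both were lower.

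The proteins through which KRAB zinc fingers repress were examined as a list of 30 genes (TRIM28 and its partners, HP1 proteins, histone deacetylases and methyltransferases and DNA methylation factors). The list was chosen with earlier results of these data known, and no background of like GC content or count was drawn for it. The values below therefore only describe it. All 30 were tested, 7 were higher in OE-WT and 0 lower, beside 9.44% and 11.6% of all genes. In 28 the log2 fold change was positive, against 51.1% of all genes. The list median was 0.23, and 0.18 with the GC trend removed, against 0.01 for all genes in both fits. The count of 7 fell to 4 with scaling by total counts alone and to 4 without CTRL replicate 1. TRIM28 itself had 4470 and 4305 counts in OE-WT against 4877 and 4984 in CTRL, or 450 and 423 CPM against 379 and 405. The groups were apart, but the log2 fold change of 0.16 (SE 0.07) missed the threshold (edgeR adjusted p 0.0982). With the GC trend removed it was 0.35 and passed (edgeR adjusted p 0.00111). SETDB1 had 160 and 135 counts against 160 and 169, a log2 fold change of 0.17 (SE 0.14, edgeR adjusted p 0.443).

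CBX5 (HP1 alpha), which binds methylated histone H3, differed most in the list. It had 1077 and 899 counts in OE-WT against 621 and 679 in CTRL, or 108 and 88.4 CPM against 48.3 and 55.1 (log2 fold change 0.93, SE 0.09, edgeR adjusted p 2.82e-07). The other HP1 proteins CBX1 and CBX3 had log2 fold changes of 0.31 (SE 0.10, edgeR adjusted p 0.0259) and 0.30 (SE 0.08, edgeR adjusted p 0.00744). HDAC2, a histone deacetylase, had 0.44 (SE 0.10), and EHMT2, which methylates histone H3 lysine 9, had 0.44 (SE 0.08). DNMT1, the maintenance DNA methyltransferase, and UHRF1, which guides it to newly copied DNA, had 0.31 (SE 0.08) and 0.40 (SE 0.08), with edgeR adjusted p of 0.00697 and 0.000845. Removing the GC trend ended the calls of CBX1 (0.26, edgeR adjusted p 0.0559) and CBX3 (0.18, edgeR adjusted p 0.0729), and 7 of the list were again higher. Both OE-WT libraries lay above both CTRL libraries in these 7 genes. Of the members themselves, 36 of 86 (41.9%) had positive log2 fold changes, against 45.8% of the ZNF genes of other chromosomes and 51.1% of all genes. The member median was −0.04, and 0.00 with the GC trend removed.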

How the data were processed

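RNA sequencing reads of DLD1 cells were trimmed with Cutadapt, aligned to GRCh38 with HISAT2 and counted per gene with HTSeq by the study's methods. The submitters' processing notes name HISAT2 2.2.1, featureCounts 2.0.0 and DESeq2 1.34.0. The authors deposited these raw counts without normalization. The annotation release and strand setting are not given in the sources used here. The labels describe poly(A) selection and a stranded kit with 2 libraries per group, and the study's methods rRNA removal and 3 replicates. The table has 1 column per library and 0 unmapped columns.

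Genes with enough counts by filterByExpr (minimum count 10) were tested in edgeR 4.0.16 (R 4.3.3), with TMM scaling, the quasi-likelihood test and Benjamini-Hochberg adjustment over 14133 genes. Standard errors come from the fit. A count of 0 allows up to 3 counts, 0.242 to 0.290 CPM, counting error only. The test was first run on simulated counts with known changes. Symbols (57532 of 58302 identifiers), coordinates, GC content and coding sequences came from 1 transcript per gene of GENCODE 44. Read sharing was counted over 100-base windows.

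The test was repeated with DESeq2 1.42.0, with scaling by RLE or by library size alone, with a looser filter (1 count) and a stricter one (10 counts per library), with a GC trend (lowess, span 0.3) removed, a replicate block, each library left out, and other member sets and GC windows. The members and lists were chosen with earlier results of these data known. Genes named were TRMT6, TRMT61A, the members at an adjusted p below 0.05 (at most 10 per direction), the 5 with the highest mean count, 2 on each side of the limit, the most abundant in each stretch, TRIM28, SETDB1 and the called partners. Others are named as leading in fingers, level per kb, domain or fold. With 1 library left in an arm, that library is assumed to vary like the others.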

Additional observations from a re-analysis of the deposited data

How the results depend on the processing

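The 4 higher and 4 lower members are counts at the threshold. The share of all genes called, both directions together, was 9.74% with DESeq2 and 8.7% with the loose filter of 1 count. With the GC trend removed it was 20.1%, and with library size only 22.5%. Among the members, DESeq2 and the loose filter gave 0 higher each. The number higher was 1 with the GC trend removed, 1 with library size only, and 2 in members with a mean of at least 50 or at least 100 counts. It was 2 with the KRAB pattern alone and 2 in members with no shared 100-base window, both chosen after seeing the data, and 0 to 3 with each library left out. The number lower was 2 with DESeq2, 2 without the filter, 7 with library size only and 1 with the KRAB pattern alone, and 3 to 5 with each library left out. The count past p below 0.05 and 2-fold was 0 to 1 with each library left out. The member median of −0.04 was 0.00 with the GC trend removed, −0.13 with library size only and −0.12 without shared windows, and −0.05 to −0.01 with each library left out. The member median minus that of the GC window, −0.04, was −0.01 with the GC trend removed, −0.09 in the central 50% window and −0.05 to −0.01 with each library left out. Repressor partners numbered 4 higher with library size only and 4 to 9 with each library left out. The log2 ratio of the summed members was −0.14 with library size only. The cause of these changes was not tested.

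With the replicate block, 3 members were higher and 3 lower, and 5 of the 8 calls were the same genes. In that fit 18.8% of all genes were called. Libraries with the same number deviated from their group means with a correlation of −0.0681 across genes. The labels do not say whether libraries with the same number share a culture or a batch. The 8 called members, TRMT6 and TRMT61A kept the sign of their log2 fold change under the 11 alternatives. With the GC trend removed, ZNF574 went from −0.15 to 0.01. Counts under 50 in 38 members limit what can be called there: their median standard error was 0.28.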

Other observations

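Codon content was compared because TRMT6 and TRMT61A modify tRNA. The coding sequences of the members held a median of 43.4 GAG codons per 1000, against 38.4 over all coding genes tested, and 37.7 GAA codons against 26.5, both for glutamate. The aspartate codon GAC stood at 13.4 against 24.3, the alanine codon GCA at 10.34 against 15.3 and the leucine codon TTG at 6.80 against 12.2. The log2 fold change of the members had a Spearman's rho of −0.14 with GAG and 0.29 with GAA content over 86 genes, close to the −0.13 and 0.35 over all 11663 coding genes tested, and 0.05 and 0.00 with the GC trend removed. RNA level was measured here, not translation.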
